A study of Mus musculus with 10 samples.

Results

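The 9 membrane-bound adenylyl cyclase genes, Adcy1 to Adcy9, were examined for accessible chromatin in mouse muscle stem cells treated with prostaglandin E2 (PGE2). They are 9 of the 21887 protein-coding genes of the gene table. A region was assigned to one of them when its strongest summit lay within 20 kb of the gene's span on GRCm38 (mm10). This gave 136 of the 117284 regions of the aged list and 132 of the 131656 regions of the young list. All 9 genes had at least 3 regions in each list. The genes were taken by name as a family and not by a rule on their values, though earlier results of these data were known.

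The assay was ATAC-seq: a transposase inserts adapters where DNA is not packed away, so sequenced fragments pile up at accessible chromatin. The cells were C57BL/6 muscle stem cells, sorted as α7-integrin+ CD34+ and kept for 2 h in culture. The labels name 3 aged PGE2, 3 aged vehicle, 2 young PGE2 and 2 young vehicle libraries, 10 in all. Aged mice were 20 to 25 months old and young mice 8 to 20 weeks old, and vehicle was 0.1% DMSO. PGE2 was dissolved in DMSO, and its final dose is not given in the sources used here. No transgene or mutation is named for any group. The values used here are 2 lists of accessible regions, one for aged and one for young cells, both after PGE2, and the vehicle groups were not analysed here. The response to PGE2 was therefore not measured, and the question addressed was where chromatin was open at these genes at each age after the treatment.

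With 1 list for each age and no values of single libraries, nothing printed for the ages carries a replicate error, and no p-value is given. The lists differed as a whole. The aged list covered 71.6 Mb with a median summit fold of 4.32, and the young list covered 92.2 Mb with a median summit fold of 4.89. The fold is the authors' deposited enrichment of fragments at a summit over background. The spacing of the folds was read as a background uniform along the genome, 19.8 fragments in the aged list and 21.7 in the young list. That reading could not be checked. A fold is read against other folds of its own list, and values of the 2 lists stand side by side without being compared. Intervals of folds are exact 95% Poisson intervals of the fragments at the summit and cover counting error only, since fragments were amplified by PCR. More cells with a site open and a more open site in each cell cannot be told apart in such bulk libraries.

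The labelled cell type was checked at gene ends, taken as within 1 kb of either end of a gene's span. Over all protein-coding genes, 63.8% had a region there in the aged list and 66.5% in the young list. All 10 muscle stem cell markers, among them the transcription factors Pax7 and Myf5, had one in both lists, with folds of 16.6 to 47.1 in the aged list and 26.7 to 111 in the young list. Markers of other cell types were also found open, some of them at higher folds. Of 6 endothelial markers, 2 had a region in the aged list (2.69 and 42.5) and 3 in the young list (1.98 to 58.6). Of 6 immune markers, 2 had one in the aged list (9.76 and 31.5) and 2 in the young list (12.1 and 40.0), and Ptprc, the pan-leukocyte antigen CD45, had none. Of 6 fibro-adipogenic markers, 6 had one in the aged list (up to 98.9) and 5 in the young list (up to 129), with the highest at Dpt. Of 5 glial markers, 3 had one in the aged list (3.99 to 35.7) and 4 in the young list (2.95 to 62.8). All 6 smooth muscle and pericyte markers had one in both, with folds of 7.69 to 50.2 in the aged list and 9.29 to 48.2 in the young list. The part of such cells in the results below was not tested.

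Adenylyl cyclases make cAMP from ATP. PGE2 binds receptors on the cell surface, and its EP2 and EP4 receptors act through the stimulatory G protein Gαs, which switches on all of the membrane-bound cyclases, while inhibitory G proteins hold some of them back. The isoforms are grouped by what else controls them. Adcy1, Adcy3 and Adcy8 are known for stimulation by calcium and calmodulin. Adcy2, Adcy4 and Adcy7 are known for stimulation by Gβγ subunits. Adcy5 and Adcy6 are inhibited by calcium and by Gαi, and Adcy9 is known for its poor response to forskolin.

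The sequences around 5 starts are shown because they carry the contrast in the results: the start of Adcy9, whose summit within 1 kb had the highest fold of the family's starts in each list (in the young list with an interval that overlapped that of Adcy7), the CpG-rich start of Adcy2, and the 3 annotated starts of Adcy7, of which the first and the second were open and the third was not. Each run holds 250 bases before the start and 50 after it, from RefSeq on GRCm38.p6, read 5′ to 3′ on the gene's own strand. Capitals mark GC boxes (GGGCGG or its complement CCGCCC) and the core of the cAMP response element (TGACG or its complement CGTCA).
Adcy9 start, chr16:4420449-4420748, minus strand: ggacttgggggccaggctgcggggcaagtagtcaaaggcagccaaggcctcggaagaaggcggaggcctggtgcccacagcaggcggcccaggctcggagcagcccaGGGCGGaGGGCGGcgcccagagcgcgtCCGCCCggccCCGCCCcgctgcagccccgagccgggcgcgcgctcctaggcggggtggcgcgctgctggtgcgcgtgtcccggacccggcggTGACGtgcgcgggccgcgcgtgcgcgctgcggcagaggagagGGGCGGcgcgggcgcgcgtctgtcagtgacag
Adcy2 start, chr13:68999492-68999791, minus strand: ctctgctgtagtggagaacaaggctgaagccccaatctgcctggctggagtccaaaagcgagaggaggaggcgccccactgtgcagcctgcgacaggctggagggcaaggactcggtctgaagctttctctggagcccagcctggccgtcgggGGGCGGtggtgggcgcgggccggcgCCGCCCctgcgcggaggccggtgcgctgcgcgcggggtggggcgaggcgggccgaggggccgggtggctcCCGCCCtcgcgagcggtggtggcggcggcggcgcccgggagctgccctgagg
Adcy7 start 1, chr8:88282742-88283041, plus strand: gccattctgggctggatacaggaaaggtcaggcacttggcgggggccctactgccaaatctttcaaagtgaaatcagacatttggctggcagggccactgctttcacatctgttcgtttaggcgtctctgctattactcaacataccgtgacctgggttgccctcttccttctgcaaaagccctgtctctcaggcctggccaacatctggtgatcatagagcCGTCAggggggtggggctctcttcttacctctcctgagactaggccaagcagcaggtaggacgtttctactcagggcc
Adcy7 start 2, chr8:88288816-88289115, plus strand: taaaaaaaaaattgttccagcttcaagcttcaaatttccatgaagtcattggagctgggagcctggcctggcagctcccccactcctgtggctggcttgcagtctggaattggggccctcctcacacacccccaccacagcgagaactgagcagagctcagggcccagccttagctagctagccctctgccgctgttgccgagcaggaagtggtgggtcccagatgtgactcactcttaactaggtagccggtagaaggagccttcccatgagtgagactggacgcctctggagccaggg
Adcy7 start 3, chr8:88293954-88294253, plus strand: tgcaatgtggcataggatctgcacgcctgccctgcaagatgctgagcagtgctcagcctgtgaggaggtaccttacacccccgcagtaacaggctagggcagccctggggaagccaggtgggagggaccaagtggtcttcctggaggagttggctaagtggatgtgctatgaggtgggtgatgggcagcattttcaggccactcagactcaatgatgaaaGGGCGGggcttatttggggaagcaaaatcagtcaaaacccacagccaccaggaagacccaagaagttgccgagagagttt

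Of the 9 genes, 7 had an annotated start in the promoter table, 10 starts in all, and Adcy6 and Adcy8 had none there. The starts fell into CpG-rich and CpG-poor ones. The Adcy9 window had 78.3% G and C and 42 CpG dinucleotides, and the Adcy2 window had 75.0% and 32. The starts of Adcy5 (79.0%, 44 CpG), Adcy1 (74.0%, 37 CpG) and the first of Adcy3 (68.7%, 33 CpG) were of the same kind, and that of Adcy4 held 58.0% and 16 CpG. The second start of Adcy3 held 56.0% and 7 CpG. The 3 starts of Adcy7 held 6, 5 and 4 CpG at 54.7%, 57.0% and 55.7% G and C. Over all genes, the 12667 starts open in both lists had a median of 21 CpG (quartiles 14 and 29) and the 7936 open in neither had a median of 3 (quartiles 1 and 5). The first and second starts of Adcy7, open in both lists, and the second of Adcy3, overlapped in the young list alone, had CpG counts below that lower quartile.

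Of the 6 motifs searched, 4 were present in these 10 windows, counted on both strands. The full cAMP response element TGACGTCA was in 0 of 10, beside 2.23% of all 21263 starts. Its core TGACG, which is part of that element, was in 2 of 10, at the first Adcy7 start and at Adcy9, beside 23.6% of all starts. GGGCGG was in 6 of 10, with 5 copies each at Adcy1 and Adcy9, beside 46.2%. CAGCTG, an E-box of the kind bound by myogenic factors, was in 0 of 10, beside 15.6%. TGANTCA, the AP-1 motif, was in 2 of 10, at the first Adcy3 start and the second Adcy7 start, beside 6.99%, and CCAAT was in 3 of 10, beside 38.2%. Among starts open in both lists, GGGCGG was in 67.3%, TGACG in 31.9% and TGACGTCA in 3.27%. CAGCTG was in 15.1% of those starts, TGANTCA in 4.81% and CCAAT in 37.6%. A match is a string in this window and not a measured binding site.

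Most adenylyl cyclase genes were open at a gene end in both lists. A region lay within 1 kb of an end of the span for 8 of 9 genes in the aged list and for 8 of 9 in the young list, and these were the same 8 genes. Over all protein-coding genes the share was 63.8% in the aged list and 66.5% in the young list. The cyclase ends were open at low folds, with a median gene-end fold over the 8 genes of 7.50 in the aged list and 13.8 in the young list, beside 28.9 and 44.1 over all genes with a gene-end region. The exception was Adcy9, whose annotated start lies 16738 bp inside its span and was open in both lists. The 300-base start window was overlapped by a region for 6 of the 7 genes that have one in the aged list and for 7 of 7 in the young list, beside 60.8% and 63.0% of 17492 genes. The gene without such an overlap in the aged list was Adcy4, where the region ended 78 bp short of the window.

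**Figure D1:**
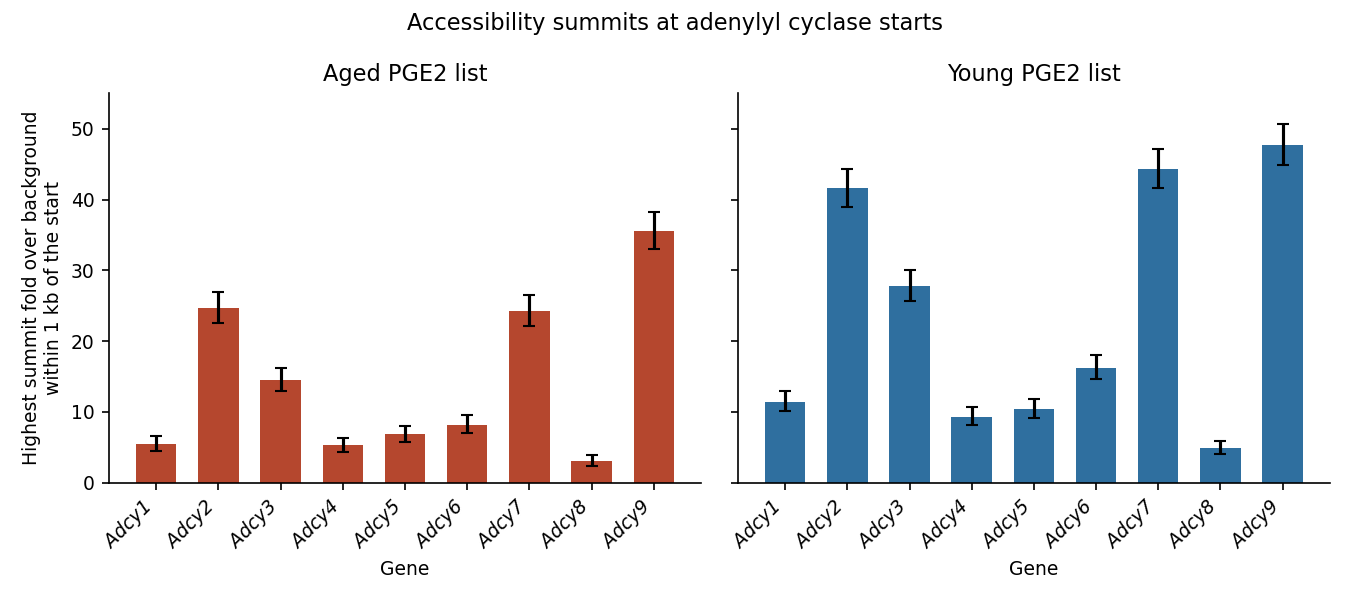
Highest summit fold over background within 1 kb of a start (or, for Adcy6 and Adcy8, of the higher-numbered span end) for the 9 genes, in the aged PGE2 list (left) and the young PGE2 list (right). Bars are 1 list each and error bars are 95% Poisson intervals of the fragments; Adcy9 is highest and Adcy8 lowest in both panels.

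The starts differed widely in height within each list. In the aged list the order was Adcy9 with a fold of 35.6 (33.0 to 38.2), Adcy2 with 24.7 (22.6 to 26.9), Adcy7 with 24.3 (22.2 to 26.5), Adcy3 with 14.5 (12.9 to 16.2), Adcy6 with 8.17 (6.99 to 9.49), Adcy5 with 6.82 (5.75 to 8.04), Adcy1 with 5.43 (4.48 to 6.52), Adcy4 with 5.29 (4.35 to 6.37) and Adcy8 with 3.08 (2.37 to 3.92). Neighbours in that order whose intervals overlapped were Adcy2 and Adcy7, Adcy6 and Adcy5, Adcy5 and Adcy1, and Adcy1 and Adcy4. In the young list the order was Adcy9 with 47.7 (44.9 to 50.6), Adcy7 with 44.4 (41.7 to 47.2), Adcy2 with 41.6 (39.0 to 44.3), Adcy3 with 27.7 (25.6 to 30.0), Adcy6 with 16.2 (14.6 to 18.0), Adcy1 with 11.4 (10.1 to 12.9), Adcy5 with 10.4 (9.15 to 11.8), Adcy4 with 9.29 (8.08 to 10.6) and Adcy8 with 4.89 (4.02 to 5.88). There the overlapping neighbours were Adcy9 and Adcy7, Adcy7 and Adcy2, Adcy1 and Adcy5, and Adcy5 and Adcy4. In both lists Adcy9, Adcy2, Adcy7 and Adcy3 stood above the other 5 genes, with no overlap of intervals between the 2 sets. The summit used for Adcy6 lay 888 bp inside the span end in the aged list and 881 bp inside it in the young list, and within 500 bp of that end the folds were 2.55 in the aged list and 6.47 in the young list. For Adcy8 the summits lay 656 and 640 bp inside the end, and within 500 bp the folds were 2.79 in the aged list and 4.80 in the young list.

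**Figure D2:**
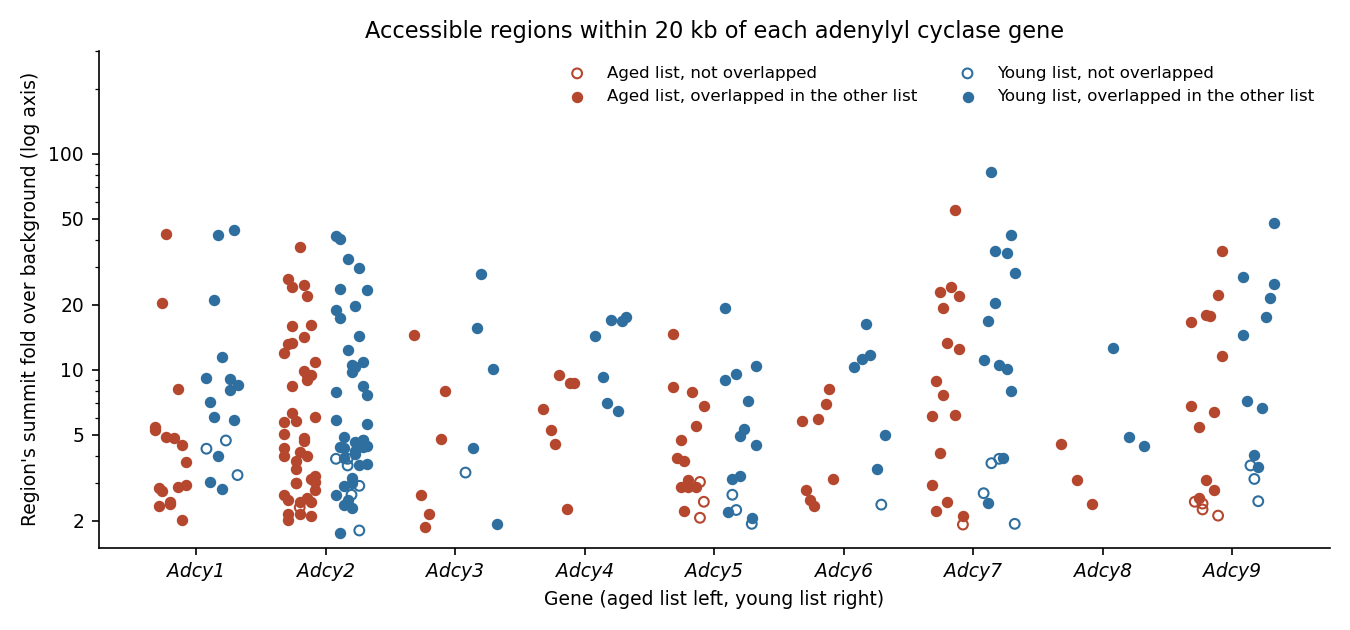
Summit fold over background (log axis) of every accessible region within 20 kb of each gene, with the aged list left and the young list right of each gene's tick. Filled points are overlapped by a region of the other list by at least 1 bp and open points are not; the open points lie at or below 3.03 in the aged list and 4.71 in the young list.

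The calcium-stimulated isoforms were unlike each other. Adcy1 (chr11:7063433-7178506, plus strand) had 17 regions in each list and its highest folds far inside the gene. Adcy3 (chr12:4133116-4213525, plus strand) had 6 regions in each list, the strongest of them at the first annotated start. Adcy8 (chr15:64699035-64922296) had 3 regions in each list along a span of 223 kb. The table used here gives the span of each gene without exons, so regions inside a span are not split into exonic and intronic ones.

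At Adcy1, best known for its role in neurons, the start region was modest and 2 sites inside the gene were strong. The start summit had a fold of 5.43 in the aged list and 11.4 in the young list. The site 93023 bp downstream, at chr11:7155987-7156881 in the aged list, had a fold of 42.7 there, and the region over it in the young list, chr11:7155196-7156916, had a fold of 42.1. The site 71114 bp downstream in the aged list had a fold of 20.5 there, and its counterpart in the young list had 44.3. The highest site of the gene was thus the more distant one in the aged list and the nearer one in the young list. Of the fragments at these 2 summits together, the more distant one held 67.6% (exact binomial interval 65.0 to 70.2) in the aged list and 48.8% (46.5 to 51.0) in the young list. The pair was picked because the strongest site differed, so the shares are a description.

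At Adcy3, known from the primary cilium and from olfactory neurons, the start led. Its first start had a fold of 14.5 in the aged list, with the summit 4 bp before the start, and 27.7 in the young list, with the summit 2 bp before it. The window of the second start, further downstream, was missed by the aged region by 3 bp and overlapped by the young one. A site 54287 bp downstream of the second start in the aged list, with a fold of 7.98, was the next strongest, and its counterpart in the young list had a fold of 15.7. Just outside the 20 kb limit, at 20826 bp from the span, lay a region with a fold of 59.8 in the aged list, and at 20822 bp one with 86.3 in the young list. The regions just inside the limit were at Adcy6, 18845 bp from the span with a fold of 2.79 in the aged list and 18818 bp with 3.48 in the young list.

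Adcy8 was the least open of the family. Its regions numbered 1.14 per 100 kb of window in both lists, at the percentile 22.3 of all genes in the aged list and 20.1 in the young list. Of its 3 regions, 2 lay at the higher-numbered span end, with folds of 3.08 and 2.40 in the aged list and 4.89 and 4.45 in the young list. The third, outside the span at chr15:64687295-64687517 in the aged list, was the strongest, with a fold of 4.52 there and 12.7 in the young list. Each of the 3 was overlapped by a region of the other list.

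Among the isoforms that Gβγ stimulates, Adcy2 (chr13:68620043-68999600, minus strand) had the most regions of the family, 46 in the aged list and 47 in the young list, along a span of 380 kb. Per 100 kb of window this came to 11.0 in the aged list and 11.2 in the young list, close to Adcy1. Its start, shown above, had a fold of 24.7 in the aged list and 41.6 in the young list. The start region was the strongest of the gene in the young list. In the aged list the strongest was instead a site 206134 bp downstream, chr13:68792817-68793926, with a fold of 37.2, where the young list had 32.6. Of the fragments at these 2 summits together, the distant site held 60.2% (57.4 to 62.8) in the aged list and 43.9% (41.5 to 46.3) in the young list, again for a pair picked by its difference. A further site 325402 bp downstream had a fold of 22.1 in the aged list, and its counterpart in the young list had 40.5.

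**Figure D3:**
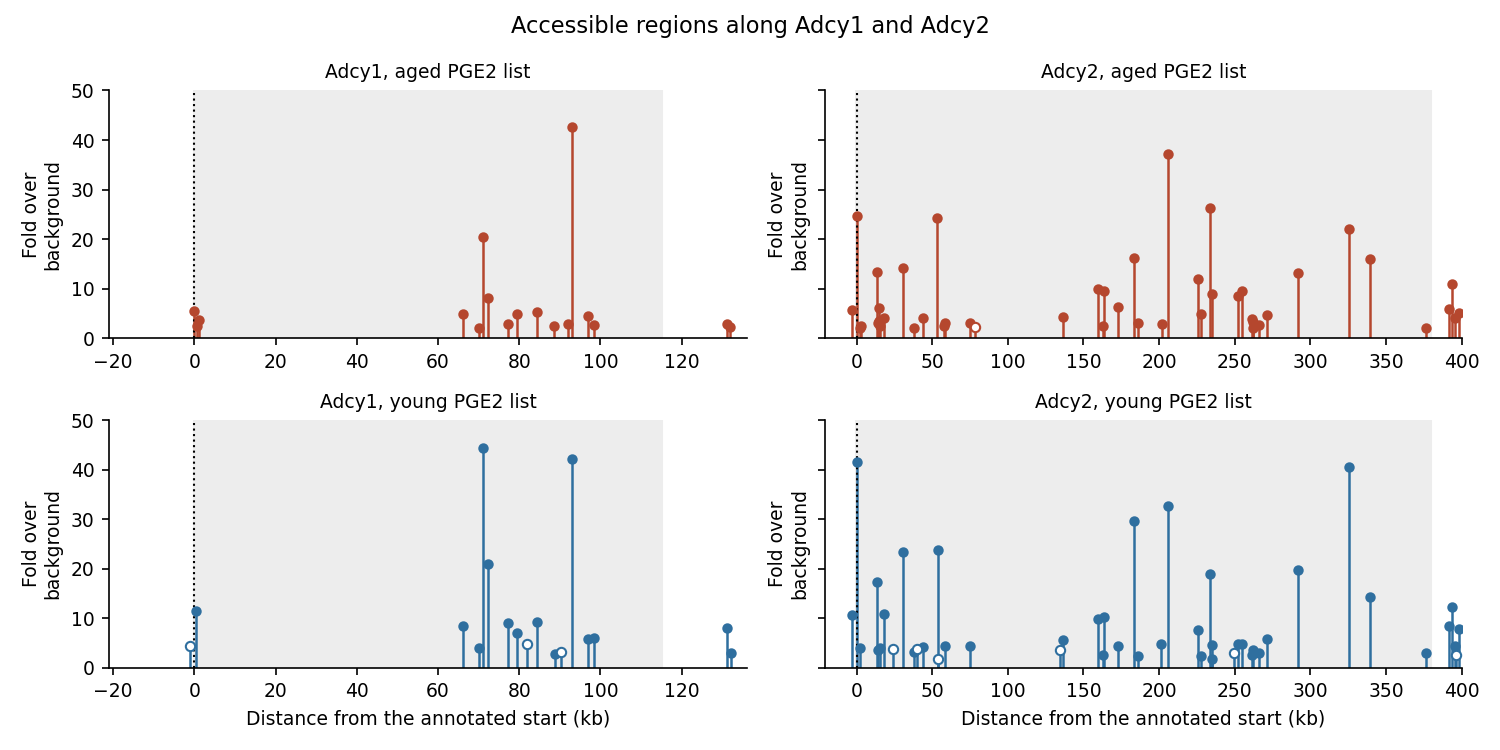
Accessible regions along Adcy1 (left) and Adcy2 (right), aged PGE2 list above and young PGE2 list below; x is the distance in kb from the annotated start (dotted line), y the summit fold over background, and grey the gene's span. Filled points are overlapped in the other list and open points are not; at Adcy1 the tallest line is the farther of the 2 tall sites in the aged list and the nearer in the young list.

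Adcy7 (chr8:88272190-88329965, plus strand), an isoform with high expression in blood cells, was the most densely open gene of the family. It had 17 regions in each list, 17.4 per 100 kb of window, at the percentile 88.9 of all genes in the aged list and 86.8 in the young list. Regions covered 13.5% of its window in the aged list and 18.6% in the young list. The strongest site of the family lay here, chr8:88284246-88286241 in the aged list, 1875 bp downstream of the first start, with a fold of 55.2. In the young list the summit at 1868 bp had a fold of 82.1, and its region, with 11 summits, ran on across the first start.

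The annotated starts of Adcy7 differed in accessibility. At the first start the highest summit within 1 kb had a fold of 23.0 in the aged list and 44.4 in the young list. At the second start it had 24.3 in the aged list and 34.9 in the young list. Near the third start there was no summit within 1 kb in either list, and the nearest region was 3822 bp from its window in the aged list and 3807 bp in the young list. The end of the span at the lower coordinate, upstream of all 3 starts, was open too, with a fold of 13.4 in the aged list and 28.0 in the young list. In all, 6 of the aged and 7 of the young regions lay nearest to an end of another gene, among them Brd7, a bromodomain gene on the far side, and Tent4b.

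**Figure D4:**
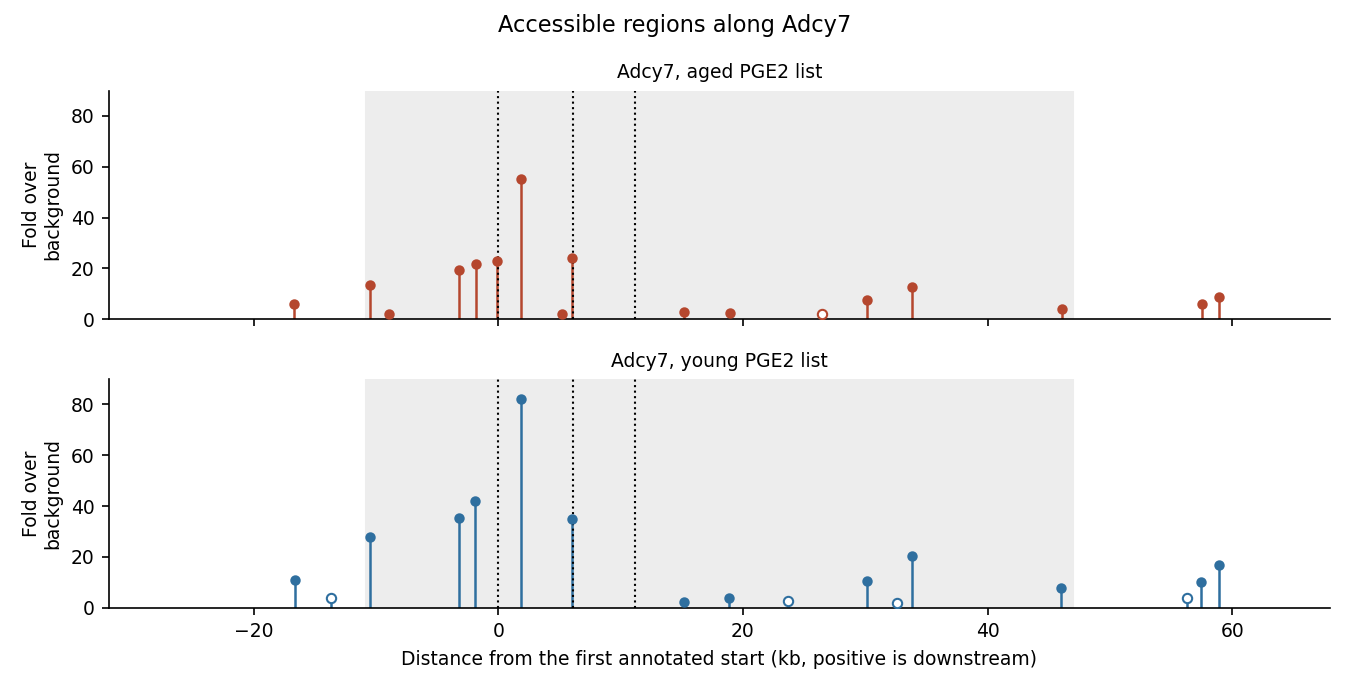
Accessible regions along Adcy7, aged PGE2 list above and young PGE2 list below; x is the distance in kb from the first annotated start, y the summit fold over background, dotted lines the 3 annotated starts and grey the gene's span. The tallest line, 55.2 in the aged list and 82.1 in the young list, stands just downstream of the first start, and no line stands at the third start.

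Adcy4 (chr14:55769056-55784095, minus strand) is a short gene among close neighbours. It had 7 regions in each list, and each had a counterpart in the other list. Of these, 5 lay nearest to an end of another gene in both lists, namely Cideb, the leukotriene B4 receptor genes Ltb4r1 and Ltb4r2, and Ripk3. Its strongest regions stood in that flank, with a fold of 9.42 in the aged list and 17.6 in the young list. At its own start the fold was 5.29 in the aged list and 9.29 in the young list, with the summits 465 and 458 bp downstream of the start. A site inside the gene, 2645 bp downstream of the start in the aged list, had a fold of 8.70 there, and its counterpart in the young list had 16.9.

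The isoforms that calcium inhibits, known from the heart, were open at an end with moderate folds. Adcy5 (chr16:35154494-35305743, plus strand) had 16 regions in the aged list and 15 in the young list. Its start had a fold of 6.82 in the aged list and 10.4 in the young list. The strongest site lay inside the gene in both lists, 95842 bp downstream with a fold of 14.7 in the aged list and 95840 bp downstream with 19.3 in the young list. Adcy6 (chr15:98589978-98610287) had 8 regions in the aged list and 7 in the young list, the strongest at its higher-numbered end with folds of 8.17 and 16.2. No summit lay within 1 kb of its other end in either list.

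Adcy9 (chr16:4284886-4437236, minus strand), the isoform most distant in sequence from the others, had the highest start. It had 16 regions in the aged list and 13 in the young list. The start region was its strongest in both, chr16:4419317-4421233 with a fold of 35.6 in the aged list and chr16:4419240-4421238 with 47.7 in the young list. The next in the aged list was a site 50188 bp downstream with a fold of 22.2, which had 17.7 in the young list. The next in the young list was a site 152260 bp downstream, outside the span, with 27.0, which had 16.7 in the aged list. Adcy9 also held 4 of the 9 aged regions without a counterpart, with folds of 2.11 to 2.45.

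Across the family, most regions were found in both lists. In the aged list 127 of 136 regions (93.4%, exact Clopper-Pearson interval 87.8 to 96.9) were overlapped by a young region, beside 89.3% of all aged regions. In the young list 111 of 132 (84.1%, 76.7 to 89.9) were overlapped by an aged region, beside 71.8% of all young regions. Overlaps were not one to one, since 2 aged regions and 16 young regions touched more than 1 region of the other list. The family's regions covered 77.8 kb in the aged list and 99.7 kb in the young list, a ratio of 0.781, beside 0.776 over all regions. Their number had a ratio of 1.03, beside 0.891 over all regions, but its direction changed with the settings. Without merging there were 225 rows in the aged list and 262 in the young list. With a −log10 q of at least 5 there were 123 regions in the aged list and 126 in the young list.

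Regions without a counterpart had low folds, as they did over the whole lists, where their median was 2.40 in the aged list and 2.73 in the young list. The 9 in the aged list lay at Adcy9 (4), Adcy5 (3), Adcy2 (1) and Adcy7 (1) and had folds of 1.92 to 3.03, with a median of 2.31. The 21 in the young list lay at Adcy2 (6), Adcy7 (4), Adcy1 (3), Adcy5 (3), Adcy9 (3), Adcy3 (1) and Adcy6 (1) and had folds of 1.80 to 4.71, with a median of 3.13. Adcy4 and Adcy8 had none in either list. Of the young ones, 2 had a fold over 4, both at Adcy1. One lay before the start at chr11:7061988-7062338 with a fold of 4.31, and the other inside the gene at chr11:7145181-7145724 with 4.71. Of the regions without a counterpart, 3 of 9 in the aged list and 5 of 21 in the young list lay within 1 kb of a region of the other list.

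Few of the family's regions were among the strongest of a list. The top 10% of a list by the authors' significance held 4 of the 136 aged regions (2.94%), 1 each at Adcy1, Adcy2, Adcy7 and Adcy9. It held 9 of the 132 young regions (6.82%), 4 at Adcy7, 2 each at Adcy1 and Adcy2, and 1 at Adcy9. The part of each list above its median significance held 52.9% of the aged and 56.8% of the young regions. The median over the 9 genes was 11.0 regions per 100 kb in both lists, beside 5.82 in the aged list and 7.03 in the young list over all genes. Adcy3 (4.98 in both lists) and Adcy8 were below those medians in both lists, and Adcy9 (8.32 in the aged list, 6.76 in the young list) was below it in the young list.

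The order of sites within a gene was compared over sites with 1 region in each list, which leaves out merged sites such as the strongest aged site of Adcy1 and the strongest sites of Adcy5 and Adcy7. There the rank correlation of folds across sites was 0.95 at Adcy7 (10 sites), 0.94 at Adcy4 (7), 0.87 at Adcy2 (35), 0.86 at Adcy1 (12), 0.81 at Adcy9 (8) and 0.66 at Adcy5 (8). Adcy3, Adcy6 and Adcy8 had too few such sites. These are descriptions, since sites of 1 gene share their libraries. The median distance between paired summits was 7.5 to 24 bp by gene. The strongest region of the gene overlapped between the lists for 6 of 9 genes, beside 87.7% of 15581 genes with at least 2 regions in each list. The exceptions were Adcy1, Adcy2 and Adcy4. The comparison was not matched for the number of regions, which in the aged list was 17 at Adcy1, 46 at Adcy2 and 7 at Adcy4. At Adcy4 the 2 sites were of nearly equal height, one holding 52.0% (46.8 to 57.2) of their fragments in the aged list and 49.3% (45.7 to 52.9) in the young list.

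**Figure D5:**
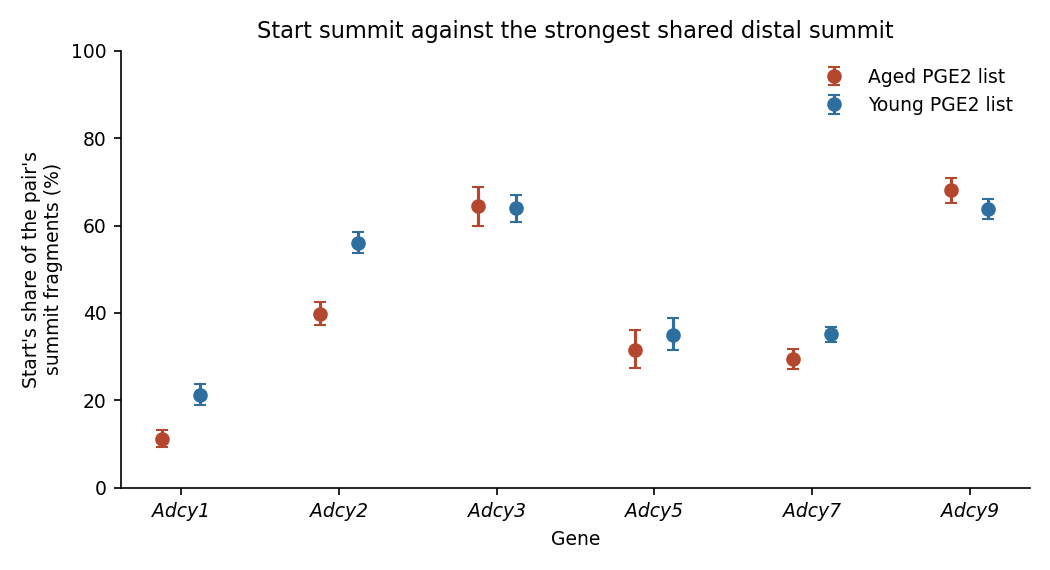
Share of summit fragments at the start, of those at the start and at the strongest shared summit over 1 kb from every start, for the 6 genes where both were found in both lists, with the same start used in both; the aged PGE2 list is left and the young PGE2 list right. Shares are those of the alternative added after the data were seen. Error bars are exact 95% binomial intervals over fragments. Those of the 2 lists are apart at Adcy1, Adcy2 and Adcy7, with the aged share lower, and overlap at Adcy3, Adcy5 and Adcy9. At Adcy1 and Adcy2 the distal site belongs to a pair picked because the strongest site differed. With other distal sites the shares of Adcy1, Adcy2 and Adcy9 change, as given in the text. By the rule as reported, those of Adcy7 overlap, at 52.6% (49.4 to 55.8) in the aged list and 51.2% (49.0 to 53.5) in the young list.

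A share within a list does not depend on a common factor by which the whole list was scaled. The start was therefore set against a distal site in each list, a measure chosen after values had been seen. Other differences between the whole lists are not removed by such a share. The start was the highest summit within 1 kb of any annotated start in each list. The distal site was the region found in both lists with the highest product of fragments, among those over 1 kb from every start and with no counterpart that overlapped a start window. At Adcy1 the start held 11.2% (9.31 to 13.3) of the fragments of the start and the site 93023 bp downstream in the aged list, and 21.3% (19.0 to 23.7) in the young list. That site was one of the pair picked above because the strongest site differed. At Adcy2 the pair was the one already described above, which was picked for its difference, and the start held 39.8% (37.2 to 42.6) in the aged list and 56.1% (53.7 to 58.5) in the young list. At Adcy9 the start held 68.0% (65.2 to 70.8) in the aged list and 63.9% (61.6 to 66.2) in the young list. At Adcy5 it held 31.6% in the aged list and 35.1% in the young list, and at Adcy3 64.5% in the aged list and 63.9% in the young list. The shares depend on the distal site. The site 71114 bp downstream of Adcy1 had 425 aged and 1005 young fragments, beside 112 and 259 at the start, nearly equal shares. At Adcy2 (325402 bp, 458 and 919, beside 512 and 944) the aged share would be slightly higher. At Adcy9 (50188 bp, 460 and 400, beside 739 and 1083) it would be lower. The sites of Adcy3 and Adcy5 were not exchanged.

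At Adcy7 the share also turned with the choice of start and site. By the rule above it was 52.6% in the aged list and 51.2% in the young list, but the highest start was the second in the aged list and the first in the young list, and the distal site was the one before the first start. With the first start in both lists and the strongest summit of the gene, 1875 bp downstream in the aged list, the start held 29.4% (27.2 to 31.7) in the aged list and 35.1% (33.3 to 36.9) in the young list. Using the same start in both lists and single summits paired within 100 bp, an alternative added after the data were seen, left the shares of the other 5 genes as they were. Those 5 kept the same start and distal summit, so the alternative does not test the choice of distal site. The share was lower in the aged list for 3 of 6 genes by the first rule, beside 56.7% of 9808 genes, and for 4 of 6 by the second, beside 57.0% of 9789 genes. Over the 9808 genes the aged minus young difference had a median of -0.783 points, with 5th and 95th percentiles of -12.2 and 8.25. By the first rule only Adcy2 (-16.2 points), a pair picked for its difference, lay outside these percentiles. Adcy1 (-10.1 points) lay inside them. With 1 list per age, the spread between mice is unknown, and these intervals do not stand for it.

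Genes that act on the cyclases were mostly open at their ends. Of 31 regulators, which comprise G protein subunits, their chaperones, calmodulins, kinases, anchoring proteins and the soluble cyclase Adcy10, 27 had a gene-end region in the aged list and 28 in the young list, beside 63.8% and 66.5% of all genes. The median gene-end fold was 36.1 in the aged list and 48.1 in the young list, beside 28.9 and 44.1 over all genes with such a region and 7.50 and 13.8 over the 8 cyclase genes. The highest aged folds were at Rgs2, which inhibits some cyclases (115 in the aged list, 168 in the young list), and Ric8b, a chaperone of Gαs (104 and 144). They were followed by the calmodulin gene Calm3 (86.4 and 95.3) and Ric8a, a chaperone of other Gα subunits (79.0 and 98.2). Gnas, which encodes Gαs, had 5.86 in the aged list and 7.92 in the young list at its span ends, and its 4 annotated starts were all overlapped in both lists. Gnb3, a Gβ subunit, was open at an end in the young list alone, with a fold of 2.42. Gnb5, a divergent Gβ, Akap6, an anchor of protein kinase A in muscle, and Adcy10, which responds to bicarbonate, had none in either list. Adcy10 had 6 regions in each list within 20 kb, and its annotated start was overlapped in neither.

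Of the cyclase genes, Adcy2 had the highest gene-end fold percentile in the aged list, 88.8, against 92.2 in the young list. The genes most like it were sought among 13855 genes by the distance over 4 percentiles, those of the gene-end fold and of the regions per 100 kb in each of the 2 lists. Nearest were Kat8, a histone acetyltransferase gene, at a distance of 1.34 percentile points, Polr2g, a subunit of RNA polymerase II, at 1.70, and Cops9, a subunit of the COP9 signalosome, at 2.28. With 2 lists, likeness rests on 4 values only.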

How the data were processed

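Reads had been mapped to mm10 (GRCm38) by Bowtie2, per the submitters' processing notes. What was deposited are 2 narrowPeak lists, for aged and for young PGE2 cells. Which libraries each list pools, the peak caller's version and settings, read filters and any shift to the cut site were not stated in the labels, and depth per library is unknown. The fold of a summit over background is a linear ratio, used as deposited from the peak caller run by the authors. The −log10 q-value, also as deposited by the authors, ranks a summit in its list, and neither value compares the ages. All folds (100%, below 100-fold) were whole multiples of 1 step within 0.01. The fragments at each summit were taken from these steps, with 1 step read as 1 fragment. That reading could not be checked without the caller's settings. If a fragment was counted more than once, the intervals are too narrow.

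Rows that touched or overlapped (215838 aged, 265507 young) were merged with Python 3.11.15 and pandas 2.3.3, keeping the summit of highest −log10 q. Overlap meant at least 1 bp. Intervals came from scipy 1.17.1, and the merging and overlap steps were tested on simulated data. Gene spans and start sequences came from RefSeq tables of GRCm38.p6. The genes, the regulator and marker lists and the rules were chosen with earlier results of these data known. Named were all 9 cyclases, and of the regulators Adcy10, those open in 1 list or neither, and the 4 of highest aged fold. Gnas, and the flank genes named, were added after values were seen. Other merging, flanks, windows, overlaps, thresholds and list lengths were also tried.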

Additional observations from a re-analysis of the deposited data

How the results depend on the processing

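Results were recomputed under 14 other settings, which gave 62 values. Of these, 53 stayed close to the reported value (within 1.5 times a count, or inside the 95% interval of a share) and 9 did not. Some of the 53 could not have moved. Cutting the young list leaves the aged counts of regions and gene ends as they are, and skipping the merge leaves gene-end counts as they are. For a gene-end count of 8, any value from 6 to 9 passed. The 53 is therefore not a measure of stability. Without merging, the family had 225 rows in the aged list and 262 in the young list, and 90.8% of the young rows were overlapped. With the strongest 58642 regions of each list, it had 72 regions in the aged list and 69 in the young list, and 91.3% of the young ones were overlapped. With a reciprocal overlap of 50%, the shares fell to 65.4% in the aged list and 67.4% in the young list, and with summits within 100 bp the aged share fell to 77.2%. Genes with a region at a gene end numbered 7 to 9 in the aged list and 7 to 8 in the young list over the settings that used gene ends. Annotated starts alone, which only 7 of the genes have, gave 6 in the aged list and 7 in the young list. The strongest regions overlapped for 6 to 7 of 9. The use of summits within 500 bp of a start, a setting added after the data were seen, changed the values at the Adcy6 and Adcy8 ends as given above. The second Adcy3 start then had no summit in the aged list and a fold of 4.71 in the young list. A second added setting, single summits and the same start in both lists, gave 4 of 6 genes with a lower start share in the aged list, where the rule as reported gave 3.

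No paired analysis was possible because each age had 1 list and no value per library. Leaving out 1 library at a time was not run for the same reason. The lowest summit had 37 fragments in the aged list and 39 in the young list, so absence from a list is not absence of fragments.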
